A study of Homo sapiens with 58 samples.

Results

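The loci described here are those of the AP-1 transcription factor genes FOS, FOSB, FOSL1, FOSL2, JUN, JUNB, JUND and ATF3 and of the YAP target genes CCN1 and CCN2. Their members are the regulatory elements (REs) of the deposited accessibility table whose midpoint lay inside a gene body or within 100 kb of a GENCODE release 44 start site of these 10 genes (hg38), whatever their accessibility. This rule took 245 of 151457 REs, of which 19 belonged to FOS, 33 to FOSB, 29 to FOSL1, 20 to FOSL2, 16 to JUN, 36 to JUNB, 30 to JUND, 29 to ATF3, 19 to CCN1 and 14 to CCN2. An RE was assigned by distance alone, and the windows also hold other genes.

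The study titrated SOX9, a transcription factor of the neural crest and cartilage, in cranial neural crest cells (CNCCs) at passage P4 that were differentiated in culture from the human embryonic stem cell line H9. In the tagged cells both copies of endogenous SOX9 carried FKBP12-F36V, a tag through which the small molecule dTAGV-1 directs a protein to degradation, together with mNeonGreen and V5. Tagged cells came from S9CC13 and S9CC47, each a single edited clone, and WT cells carried no tag. The assay for transposase-accessible chromatin (ATAC-seq) was run on 58 samples. The dose series held 42 tagged samples, treated for 48 h with dTAGV-1 concentrations of 0, 0.5, 1.6, 5, 16 or 500 nM, to which the labels assign 100, 77.9, 51.7, 25.8, 8.14 and 0.95% of the SOX9 level, with 7 replicates per concentration (4 of S9CC13 and 3 of S9CC47). WT cells were sampled after 48 h at 0 and 500 nM, and a time course compared 3 h and 24 h at 500 nM with vehicle in both genotypes, all with 2 replicates per group. The vehicle samples of the time course are labelled 24 h, so the 3 h samples have no vehicle of their own time. A replicate is a clone in a differentiation batch.

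AP-1 is a dimer of FOS and JUN family proteins, and in some cells of ATF proteins, that binds the sequence TGACTCA at many enhancers. Several of its genes are immediate-early genes, transcribed within minutes of growth factor or stress signals. YAP and its paralog TAZ are the co-activators at the end of the Hippo pathway. They bind DNA through TEAD factors, often at enhancers that AP-1 also occupies, and CCN1 and CCN2, which encode secreted matricellular proteins, are the target genes most used to read their activity.

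Of the 245 REs, 7 sequences are shown as examples, and each run is the central 201 bases of the RE on the plus strand of hg38. Capitals mark the AP-1 motif TGACTCA, the TEAD motif GGAATG and the SOX core ACAAT, all searched on both strands, so that they also appear as their reverse complements. These motifs are in 9.41%, 30.9% and 52.4% of all REs of the most common length. The first 4 REs lost accessibility when SOX9 was depleted. They lie in an intron of LINC01013 upstream of CCN2 (chr6:132022174-132022374), between genes upstream of FOSL1 (chr11:65903201-65903401), between genes downstream of CCN1 (chr1:85601881-85602081), and in an intron of ZNHIT6 downstream of CCN1 (chr1:85681181-85681381). Within these windows the CCN2 and FOSL1 REs hold a TEAD motif and the CCN1 REs hold SOX cores. The first of the CCN1 REs also holds 2 TEAD motifs, outside its window. Lower REs that are not shown, 87.1 kb upstream of JUND and 43.0 kb downstream of FOS, hold none of these motifs.
CCN2 70.9 kb upstream: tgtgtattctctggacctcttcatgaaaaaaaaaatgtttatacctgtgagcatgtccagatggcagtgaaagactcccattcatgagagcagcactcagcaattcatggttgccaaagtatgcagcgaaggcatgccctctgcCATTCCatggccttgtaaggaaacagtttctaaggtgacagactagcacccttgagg
FOSL1 2.7 kb upstream: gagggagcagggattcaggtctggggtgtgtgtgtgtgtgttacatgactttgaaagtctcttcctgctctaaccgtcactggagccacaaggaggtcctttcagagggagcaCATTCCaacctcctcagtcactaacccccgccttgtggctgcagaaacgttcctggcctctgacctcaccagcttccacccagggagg
CCN1 21.2 kb downstream: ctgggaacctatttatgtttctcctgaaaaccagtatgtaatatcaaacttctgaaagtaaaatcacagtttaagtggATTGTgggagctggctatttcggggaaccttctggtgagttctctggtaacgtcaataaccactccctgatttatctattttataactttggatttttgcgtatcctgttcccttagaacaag
CCN1 100.5 kb downstream: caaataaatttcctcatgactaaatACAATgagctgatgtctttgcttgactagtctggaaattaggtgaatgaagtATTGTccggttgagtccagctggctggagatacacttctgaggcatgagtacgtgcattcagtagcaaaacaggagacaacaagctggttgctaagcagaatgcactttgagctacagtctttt
The next 2 REs gained accessibility and hold an AP-1 motif close to their centre, in an intron of ERCC1 upstream of FOSB (chr19:45455781-45455981) and in an intron of ENPP1 downstream of CCN2 (chr6:131864039-131864239). The 2 largest gains, 49.8 kb upstream of ATF3 and 44.9 kb downstream of FOSL2, hold no AP-1 motif and are not shown.
FOSB 12.1 kb upstream: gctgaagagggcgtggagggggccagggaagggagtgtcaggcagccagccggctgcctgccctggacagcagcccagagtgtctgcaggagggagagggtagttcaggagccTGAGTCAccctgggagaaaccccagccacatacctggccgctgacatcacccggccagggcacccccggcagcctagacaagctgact
CCN2 87.2 kb downstream: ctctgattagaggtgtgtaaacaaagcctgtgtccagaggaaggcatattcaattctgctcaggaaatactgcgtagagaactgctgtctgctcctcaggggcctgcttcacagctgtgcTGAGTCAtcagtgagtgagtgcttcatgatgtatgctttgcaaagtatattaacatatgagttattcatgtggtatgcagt
The last RE, in an intron of the lncRNA gene ENSG00000283445 downstream of JUN (chr1:58727483-58727683), was lower in the time course and not called in the dose series, and holds AP-1 and TEAD motifs.
JUN 56.5 kb downstream: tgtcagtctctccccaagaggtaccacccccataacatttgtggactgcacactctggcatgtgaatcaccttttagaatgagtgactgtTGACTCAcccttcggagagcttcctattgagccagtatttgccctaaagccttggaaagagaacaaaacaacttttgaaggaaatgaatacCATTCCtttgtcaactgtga

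Over the 58 libraries the counts in REs totalled 22.9 to 81.0 M per library, and the median member held 132 to 413 counts. Accessibility is given in CPM, the count divided by the TMM-scaled library total in M counts. Promoter REs, those within 1 kb of any annotated start site, took 43.0 to 60.0% of the counts of a library. That share differed between batches and was a little higher at 500 nM (median 53.6%, against 50.4% at 0 nM). It was not in the order of the doses, with medians of 54.5% at 5 nM and 50.8% at 16 nM. In the tagged time course it was 45.6 to 45.8% after 3 h and 46.9 to 47.8% after 24 h, against 43.7 to 43.9% with vehicle. One library stood apart, that of S9CC47_R6 at 5 nM, with 56.9% in promoter REs where the other libraries of its replicate had 48.4 to 53.6%. Of the cranial neural crest markers TWIST1, TFAP2A, TFAP2B, NR2F1, NR2F2, PRRX1, MSX1 and SOX9, 8 of 8 had an RE at their promoter, at 15.7 to 60.6 CPM without dTAGV-1. Of the pluripotency genes POU5F1, NANOG, DPPA4 and ZFP42, only DPPA4 had one (12.4 CPM), and the neural genes SOX1, NEUROD1 and NEUROG2 had REs at 2.17 to 18.8 CPM. Of the endoderm genes SOX17 and FOXA2, SOX17 had one (7.77 CPM). Some marker promoters moved with treatment in tagged cells. At 500 nM those of MSX1 (log2 fold change 0.37, edgeR adjusted p = 0.0026) and SOX9 (0.16, edgeR adjusted p = 0.021) were higher and that of NEUROD1 was lower (-0.25, edgeR adjusted p = 0.018). At 24 h that of MSX1 was higher (0.43, edgeR adjusted p = 0.026) and that of NR2F2 lower (-0.32, edgeR adjusted p = 0.047), 0 of the markers were called at 3 h, and the part of these in the results was not tested. The degrader acts on the SOX9 protein, whose level these libraries do not measure.

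The members were a promoter-rich set. Of the 245 REs, 111 were promoter REs, with a median of 12.6 CPM in untreated tagged cells, and 134 were distal, with a median of 2.66 CPM. Among all 151457 REs the medians were 7.19 CPM for 37377 promoter REs and 1.93 CPM for 114080 distal REs. The spread between the 7 untreated replicates was similar in the members and in all REs (median SD 0.265 and 0.271 on the log2 scale). In the following, an RE is called when its edgeR adjusted p over all REs was under 0.05, and fold changes are on the log2 scale with their standard error.

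The first comparison asked what full SOX9 depletion did at these loci. At 500 nM and 48 h, 47 of the 245 REs were called (19.2%), where 24.1% of all REs were. Of these 16 were lower (6.53% of the members, against a background of 13.9%) and 31 were higher (12.7%, against 10.2%). Since promoter REs were called less often than distal REs throughout the genome, the members were also split. Of 134 distal members 14 were lower and 22 higher, where 15.6% of all distal REs were lower and 11.4% higher. Of 111 promoter members 2 were lower and 9 higher, where 8.76% of all promoter REs were lower and 6.42% higher. The share of members called lower was below the background in both classes and the share called higher was above it, differences that were not tested. The median change of the members was 0.06, against 0.02 over all REs. In bulk cells, a site that is open in fewer cells and a site that is less open in each cell cannot be told apart.

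**Figure D1:**
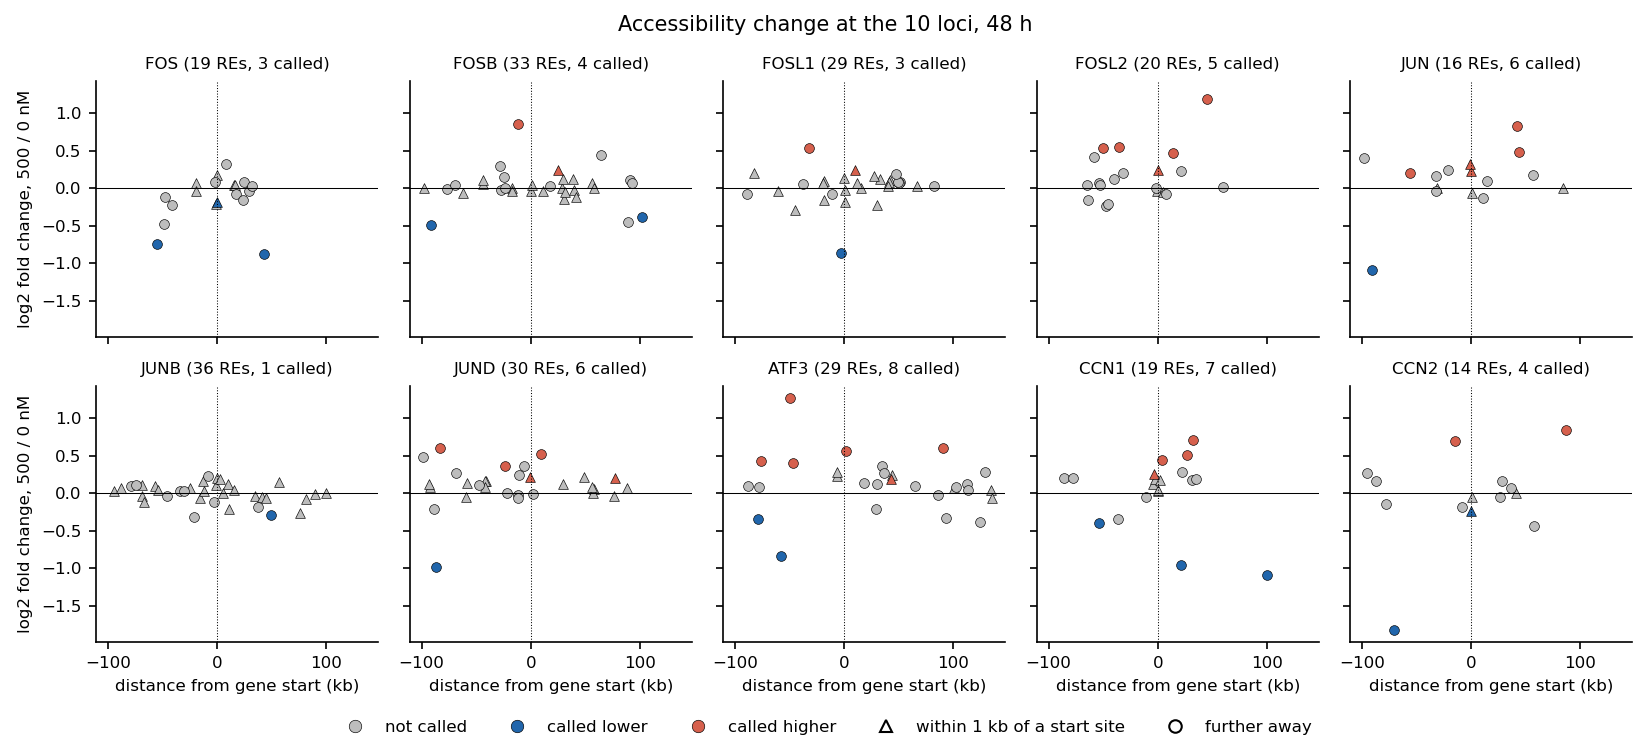
Each panel plots the log2 fold change at 500 nM over 0 nM (48 h, 7 replicates per group) of the REs of a gene against their distance from the gene start in kb, positive downstream. Triangles are promoter REs and circles distal REs, and called REs are coloured; the called REs with the largest losses (CCN2 at -1.82, CCN1 at -1.09, JUN at -1.08) and gains (ATF3 at 1.27, FOSL2 at 1.19) all lie far from the gene start.

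Among the FOS family genes, whose proteins pair with JUN proteins, 6 REs were lower and 9 higher of 101. Over all REs 13.9% were lower and 10.2% higher, which is also the background for the counts by gene below. FOS itself, the prototype immediate-early gene, had 3 lower and 0 higher of its 19 REs. The RE 54.9 kb upstream of FOS (chr14:75223663-75224163, intergenic) had 13.6, 19.9 and 28.1 CPM as lowest, median and highest value at 0 nM, and 7.16, 12.4 and 19.9 CPM at 500 nM. It was lower in 7 of 7 replicates, and the groups overlapped because the replicates differed in level (-0.74 ± 0.07, edgeR adjusted p = 2.8e-08). A second distal RE, 43.0 kb downstream of FOS (chr14:75321558-75322058), fell from a median of 1.41 CPM (0.712 to 2.5) to 0.818 CPM (0.388 to 1.07). It too was lower in 7 of 7 replicates (-0.88 ± 0.20, edgeR adjusted p = 0.0016). The promoter RE that covers the FOS start had 16.9 CPM (13.5 to 33.0) at 0 nM and 20.9 CPM (17.2 to 34.8) at 500 nM, and its difference did not pass the threshold (0.18 ± 0.08, edgeR adjusted p = 0.087). The third lower RE of FOS adjoins it, 0.5 kb upstream of the start (-0.18, edgeR adjusted p = 0.042), and is named after its values were seen.

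FOSB, the other immediate-early member of the family, had 2 lower and 2 higher of 33 REs. The RE 12.1 kb upstream (chr19:45455631-45456131), whose 2 AP-1 motifs include the one printed above, rose from 12.6 CPM (6.83 to 18.4) to 22.6 CPM (12.7 to 29.2). It was higher in 7 of 7 replicates (0.86 ± 0.11, edgeR adjusted p = 1.2e-06). An intergenic RE 91.5 kb upstream (chr19:45376283-45376783) fell from 3.76 CPM (3.03 to 6.72) to 2.79 CPM (2.39 to 4.56), lower in 7 of 7 replicates (-0.49 ± 0.12, edgeR adjusted p = 0.0033). At the FOSB promoter the medians were 22.8 CPM at 0 nM and 21.5 CPM at 500 nM, and the change was -0.03 ± 0.08 (edgeR adjusted p = 0.82).

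FOSL1 and FOSL2 encode FRA1 and FRA2, the more stable FOS proteins. FOSL1 had 1 lower and 2 higher of 29 REs. Its lower RE, 2.7 kb upstream of the start (chr11:65903051-65903551), had 2.64, 4.30 and 6.71 CPM at 0 nM and 1.71, 2.11 and 4.44 CPM at 500 nM as lowest, median and highest value. It was lower in 7 of 7 replicates (-0.86 ± 0.13, edgeR adjusted p = 1.5e-05). The RE 32.1 kb upstream of FOSL1 was higher, from 1.36 to 2.12 CPM at the median (0.54 ± 0.17, edgeR adjusted p = 0.023), and the FOSL1 promoter, at 3.67 and 3.32 CPM, was not called (0.14 ± 0.13, edgeR adjusted p = 0.48).

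FOSL2 had 0 lower and 5 higher of 20 REs, where 13.9% of all REs were lower and 10.2% higher. The direction differed from that of the 3 calls at FOS, on few calls, and the difference was not tested. At 24 h FOS had 1 lower and 2 higher REs, and FOSL2 had 0 lower and 2 higher. The intergenic RE 44.9 kb downstream (chr2:28437088-28437588) was weak, with 0.131 to 0.682 CPM at 0 nM (median 0.426) and 0.631 to 1.36 CPM at 500 nM (median 1.16). It was higher in 7 of 7 replicates (1.19 ± 0.22, edgeR adjusted p = 0.00015), on 5 to 69 counts per library. The FOSL2 promoter RE rose from 32 CPM (30.4 to 50.5) to 39.3 CPM (32.9 to 61.9), also in 7 of 7 replicates (0.25 ± 0.06, edgeR adjusted p = 0.0015).

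**Figure D2:**
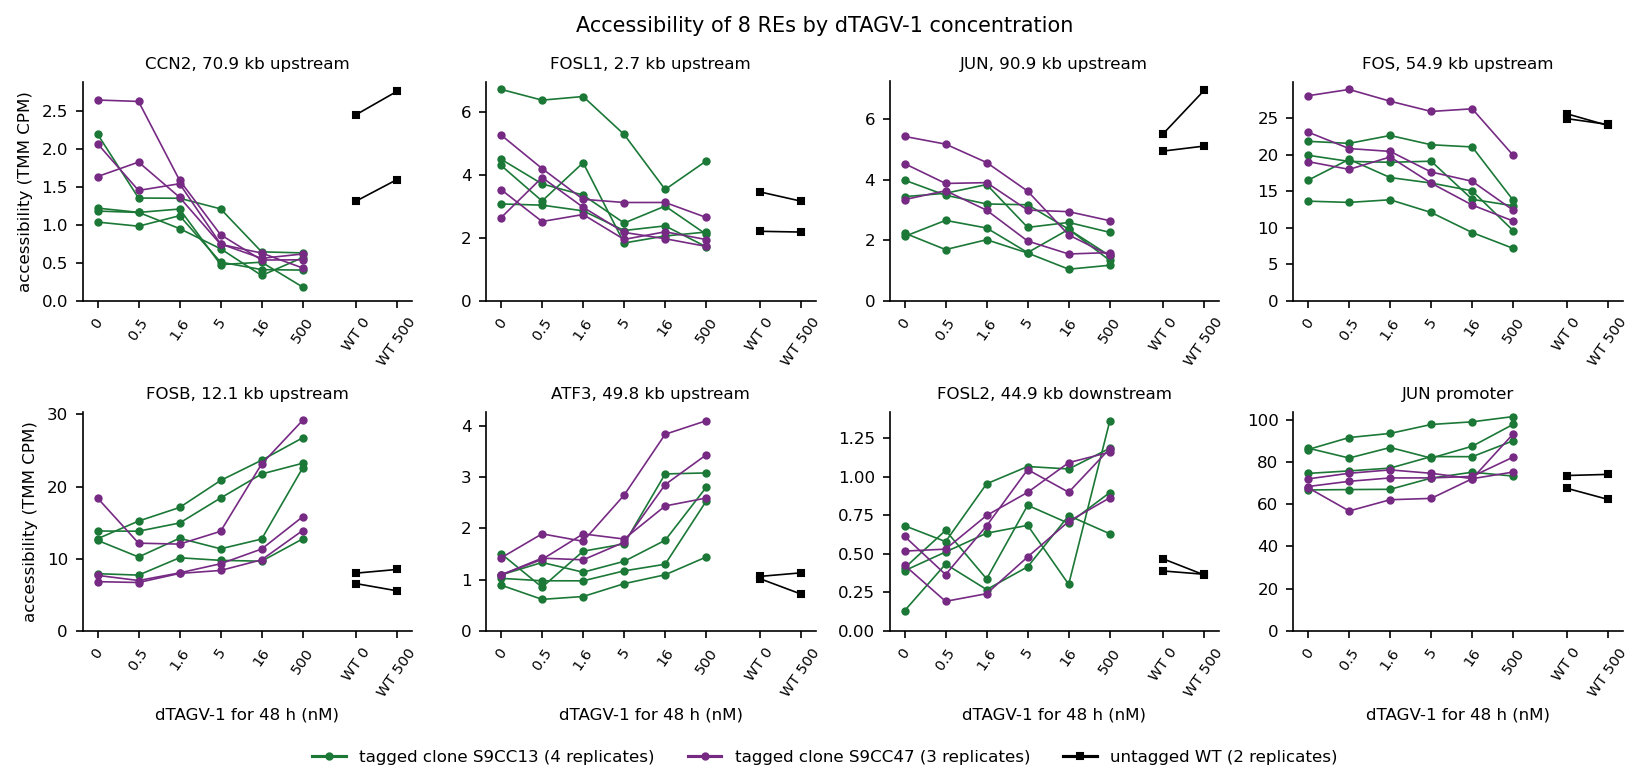
Accessibility in TMM CPM (vertical axes from 0) of 8 REs by dTAGV-1 concentration after 48 h, with a line per tagged replicate (green S9CC13, n = 4; purple S9CC47, n = 3) and black squares for the 2 WT replicates at 0 and 500 nM. In the top row the tagged lines descend, at CCN2 from a median of 1.64 to 0.539 CPM, and in the first 3 panels of the bottom row they rise, at ATF3 from 1.09 to 2.80 CPM. The JUN promoter shows a smaller rise, from 71.9 to 90.0 CPM.

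The JUN family genes encode the partners that FOS proteins need to bind DNA, and 3 of their 82 REs were lower and 10 higher. Over all REs 13.9% were lower and 10.2% higher. JUN had 1 lower and 5 higher of 16 REs. The lower RE, 90.9 kb upstream in an intron of LINC01135 (chr1:58874703-58875203), had 2.12 to 5.43 CPM at 0 nM (median 3.44) and 1.17 to 2.64 CPM at 500 nM (median 1.49). It was lower in 7 of 7 replicates (-1.08 ± 0.16, edgeR adjusted p = 8.4e-06). Higher were the promoter RE, from 71.9 CPM (66.7 to 86.5) to 90.0 CPM (73.2 to 101), and an intronic RE 42.2 kb downstream, from 2.07 CPM (1.56 to 3.34) to 4.23 CPM (1.96 to 5.84). Both were higher in 7 of 7 replicates, the promoter by 0.23 ± 0.05 (edgeR adjusted p = 0.0022) and the distal RE by 0.83 ± 0.13 (edgeR adjusted p = 2.5e-05). The most accessible member with an AP-1 motif lay 56.3 kb upstream of JUN, with 31.3 to 62.2 CPM at 0 nM and 36.2 to 68.7 CPM at 500 nM. It was higher in 6 of 7 replicates (0.21 ± 0.07, edgeR adjusted p = 0.026), which did not hold without S9CC13_R13 (0.18, edgeR adjusted p = 0.067) or without S9CC47_R8 (0.19, edgeR adjusted p = 0.071).

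JUNB, which often opposes JUN at shared targets, had 1 lower and 0 higher of 36 REs, and JUND, the most broadly expressed JUN gene, had 1 lower and 5 higher of 30. The JUNB promoter had a median of 17.4 CPM (9.74 to 24.0) at 0 nM and 21.7 CPM (13.8 to 27.6) at 500 nM and was not called (0.20 ± 0.08, edgeR adjusted p = 0.083). Its called RE, over a coding exon of MAST1 49.6 kb downstream, went from 16.2 to 12.5 CPM at the median (-0.29 ± 0.08, edgeR adjusted p = 0.0062). The JUND promoter rose from 35.3 CPM (31.4 to 60.1) to 43.7 CPM (38 to 72.8) and was higher in 6 of 7 replicates (0.22 ± 0.06, edgeR adjusted p = 0.0075). A pair of REs at the gene PGPEP1 moved in opposite directions. The one 87.1 kb upstream of JUND (chr19:18368498-18368998) fell from 5.55 CPM (4.37 to 12.9) to 2.64 CPM (1.83 to 7.13), by -0.98 ± 0.12 (edgeR adjusted p = 4.5e-07). The one 83.3 kb upstream (chr19:18364494-18365345) rose from 4.62 CPM (2.43 to 5.0) to 6.16 CPM (3.95 to 9.25), by 0.60 ± 0.11 (edgeR adjusted p = 0.00027). In both, 7 of 7 replicates showed the direction.

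ATF3, a stress-induced factor of the ATF family that can pair with JUN, had 2 lower and 6 higher of 29 REs. The shares over all REs were 13.9% and 10.2%. No RE lay within 1 kb of its annotated gene start, the most upstream one. Within the gene, an RE 43.2 kb further on and within 1 kb of another start site had a mean of 61.1 CPM at 0 nM and was higher at 500 nM (0.19, edgeR adjusted p = 0.013) and after 24 h (0.41, edgeR adjusted p = 0.0005), and was chosen after its values were seen. The largest gain of all members was 49.8 kb upstream of that start, in an intron of the lncRNA gene ENSG00000286213 (chr1:212515302-212515802). It had 0.893, 1.09 and 1.51 CPM at 0 nM and 1.44, 2.80 and 4.09 CPM at 500 nM as lowest, median and highest value. It was higher in 7 of 7 replicates, and the groups overlapped only slightly (1.27 ± 0.14, edgeR adjusted p = 1.5e-07). In the same lncRNA gene the RE 58 kb upstream (chr1:212507126-212507626) fell from 1.63 CPM (1.08 to 2.0) to 0.948 CPM (0.582 to 1.3), by -0.84 ± 0.18 (edgeR adjusted p = 0.001).

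The YAP targets had 5 lower and 6 higher of 33 REs, where 13.9% of all REs were lower and 10.2% higher. CCN2, which encodes connective tissue growth factor, held the largest loss of all members, 70.9 kb upstream in an intron of LINC01013 (chr6:132022024-132022524). Its lowest, median and highest values were 1.04, 1.64 and 2.65 CPM at 0 nM and 0.18, 0.539 and 0.63 CPM at 500 nM. This was the only one of the 31 REs named in the text whose 0 and 500 nM samples did not overlap (-1.82 ± 0.20, edgeR adjusted p = 1.1e-07), on 4 to 248 counts per library. The CCN2 promoter RE, which holds 3 TEAD motifs, had 24.4 CPM (19.5 to 29.2) at 0 nM and 20.1 CPM (18.7 to 25.7) at 500 nM. It was lower in 7 of 7 replicates (-0.23 ± 0.07, edgeR adjusted p = 0.02), but the call was lost without S9CC13_R10, S9CC13_R13 or S9CC47_R5, with -0.20 each and an edgeR adjusted p of 0.075, 0.062 and 0.064. The RE 87.2 kb downstream of CCN2 was higher in 7 of 7 replicates, with 2.05 CPM (1.09 to 2.32) and 2.88 CPM (2.06 to 5.68) (0.84 ± 0.16, edgeR adjusted p = 0.00029).

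CCN1, also known as CYR61, had 3 lower and 4 higher of 19 REs. The RE 21.2 kb downstream (chr1:85601552-85602409) fell from 3.57 CPM (2.35 to 7.26) to 2.12 CPM (1.26 to 2.93), in 7 of 7 replicates (-0.95 ± 0.15, edgeR adjusted p = 2.2e-05). Only 11.3 kb further on, the RE 32.6 kb downstream (chr1:85613079-85613579) rose from 2.15 CPM (1.42 to 2.63) to 3.12 CPM (2.47 to 3.92), also in 7 of 7 replicates (0.71 ± 0.13, edgeR adjusted p = 0.00022). The RE 100.5 kb downstream was lower in 6 of 7 replicates, from 0.945 CPM (0.342 to 1.27) to 0.409 CPM (0.225 to 0.915) (-1.09 ± 0.26, edgeR adjusted p = 0.0029). In clone S9CC13 alone its change was -0.58 (edgeR adjusted p = 0.24). The CCN1 promoter had 17.8 and 19.2 CPM and was not called (0.03 ± 0.07, edgeR adjusted p = 0.83).

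The time course was then used to see which changes were early, with the 24 h vehicle as the reference at both times. After 3 h at 500 nM, 8 of the 245 REs were called in tagged cells (3.27%, where 8.34% of all REs were), 6 of them lower (2.45%, background 7.43%) and 2 higher (0.816%, background 0.912%). At the RE 70.9 kb upstream of CCN2 the 2 replicates had 1.5 and 2.70 CPM with vehicle and 0.571 and 0.888 CPM at 3 h (-1.57 ± 0.25, edgeR adjusted p = 0.00026). At the RE 21.2 kb downstream of CCN1 they had 3.45 and 8.51 CPM with vehicle and 1.88 and 2.93 CPM at 3 h (-1.30 ± 0.19, edgeR adjusted p = 9.1e-05). The REs 90.9 kb upstream of JUN (-0.98 ± 0.23, edgeR adjusted p = 0.0089) and 2.7 kb upstream of FOSL1 (-0.70 ± 0.18, edgeR adjusted p = 0.015) were also lower. Without a replicate the FOSL1 call was lost (edgeR adjusted p = 0.21 without S9CC13_R4 and 0.40 without S9CC13_R5), as was the JUN call without S9CC13_R5 (0.071). Leaving out a replicate left fewer members called, with no share of all REs given for those fits.

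The RE 56.5 kb downstream of JUN went another way. With vehicle it had 1.87 and 3.8 CPM, at 3 h 0.577 and 1.22 CPM, and at 24 h 0.884 and 1.92 CPM (-1.72 ± 0.22, edgeR adjusted p = 2e-05 at 3 h; -1.09 ± 0.21, edgeR adjusted p = 0.00097 at 24 h). In the dose series it had 1.2 to 2.83 CPM at 0 nM and 0.682 to 3.42 CPM at 500 nM, higher in 3 of 7 replicates (0.18 ± 0.22, edgeR adjusted p = 0.63). In the batch labelled R5, the only one in both experiments, the dose series had 2.83 CPM at 0 nM and 2.72 CPM at 500 nM. The other batches differed between the experiments, so time and batch cannot be told apart there. A gain at 3 h, 7.7 kb downstream of the FOSL2 start inside the gene, from 0.958 and 1.03 CPM to 1.80 and 2.13 CPM (0.91 ± 0.23, edgeR adjusted p = 0.014), stood beside 0.47 ± 0.22 in WT cells at 3 h (edgeR adjusted p = 1.0). It was not called at 24 h or 48 h, nor at 3 h by DESeq2 or without either replicate.

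After 24 h, 37 of 245 REs were called (15.1%, where 14.6% of all REs were), 10 lower (4.08%, background 9.93%) and 27 higher (11.0%, background 4.7%). Of the 27, 18 were promoter REs, or 16.2% of the promoter members where 7.36% of all promoter REs were higher, and the median change was 0.132 in the promoter members and 0.0808 in all promoter REs. The share of counts in promoter REs moved with this comparison, as given above, and its part in the result was not tested. The JUNB promoter rose from 6.58 and 9.15 CPM to 9.78 and 12.1 CPM (0.43 ± 0.12, edgeR adjusted p = 0.021), and the JUND and FOSL2 promoters were called by 0.25 and 0.24 (edgeR adjusted p = 0.042 for both). DESeq2 called none of these promoters, and none was called without either replicate. The 24 h calls rested on both replicates, since fewer members were called without either, and all of those called without S9CC13_R4 were lower. The share of all REs called in those fits is not given. Among the larger changes, the REs 70.9 kb upstream of CCN2 (-2.27 ± 0.27, edgeR adjusted p = 4.8e-06), 21.2 kb downstream of CCN1 (-1.88 ± 0.20, edgeR adjusted p = 1.1e-06) and 2.7 kb upstream of FOSL1 (-1.14 ± 0.18, edgeR adjusted p = 0.00014) were lower, and that 12.1 kb upstream of FOSB was higher (0.68 ± 0.13, edgeR adjusted p = 0.00085). The first 3 held without either replicate, and the FOSB call was lost without S9CC13_R4 (0.48).

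Because the dose series and the time course share no samples, their calls can be set side by side. Of the 16 members lower at 500 nM and 48 h, 4 were also called lower at 3 h (25.0% of the 16 and 66.7% of the 6), and 9 at 24 h (56.2% of the 16 and 90.0% of the 10). Over all REs the shares of those lower at 48 h were 43.3% at 3 h and 60.1% at 24 h. Of the 31 members higher at 48 h, 0 were called higher at 3 h and 11 at 24 h (35.5% of the 31 and 40.7% of the 27), where 1.61% and 26.2% of all REs higher at 48 h were. In direction alone, 15 of the 16 and 29 of the 31 had the same sign at 24 h.

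**Figure D3:**
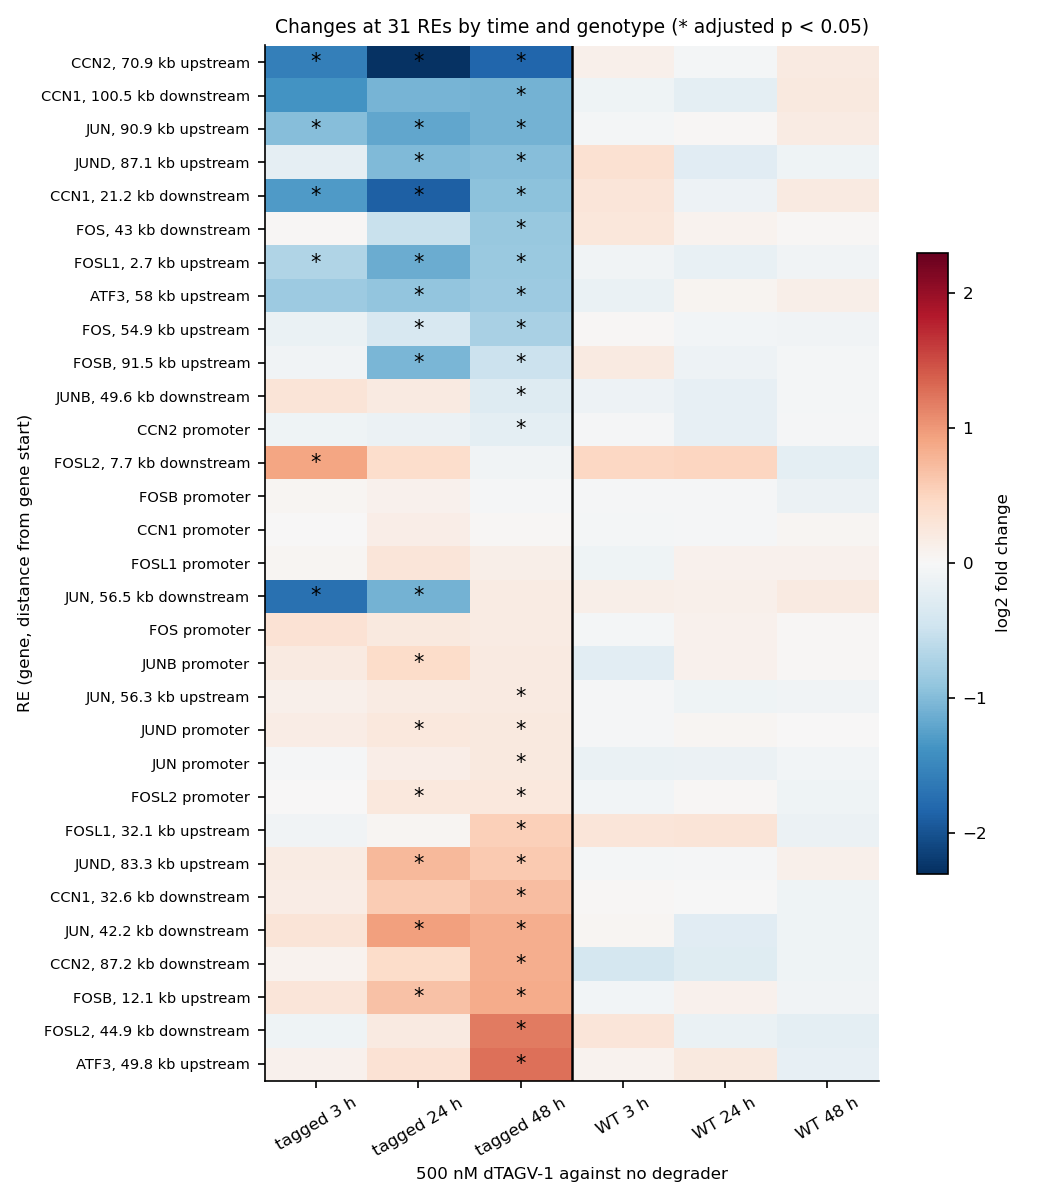
Log2 fold change at 500 nM dTAGV-1 over no degrader for the 31 named REs (rows, ordered by the 48 h change) at 3, 24 and 48 h in tagged (left of the line) and WT cells (right), with asterisks for an edgeR adjusted p under 0.05. Loss at CCN2, CCN1, JUN and FOSL1 REs is seen from 3 h, most gains appear at 24 or 48 h, and the WT columns hold 0 asterisks.

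WT cells, which lack the tag, were the control for effects of dTAGV-1 itself. In WT cells 0 members were called by edgeR at 3 h, 0 at 24 h and 0 at 48 h, where 0%, 0% and 0.303% of all REs were. DESeq2 called 0 members at each time as well, and 7, 6 and 19 members had an unadjusted edgeR p under 0.05. The members lower at 500 nM in tagged cells had a median change of -0.02 in WT cells at 48 h, with 9 of 16 below 0, and those higher in tagged cells had -0.06, with 12 of 31 above 0. At the RE 70.9 kb upstream of CCN2 the WT replicates had 1.31 and 2.45 CPM at 0 nM and 1.6 and 2.76 CPM at 500 nM (0.21 ± 0.18, edgeR adjusted p = 0.84). At the RE 49.8 kb upstream of ATF3 they had 1.02 and 1.06 CPM at 0 nM and 0.723 and 1.13 CPM at 500 nM (-0.19 ± 0.24, edgeR adjusted p = 0.92).

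The difference between the genotypes was tested itself, as the interaction of genotype and treatment. At 48 h 23 members differed (9 lower and 14 higher in tagged cells), with 10.8% of all REs called, at 3 h 3 members with 5.2% of all REs, and at 24 h 8 members with 6.73%. The 48 h differences included the REs 70.9 kb upstream of CCN2 (-2.03, edgeR adjusted p = 6.5e-06), 49.8 kb upstream of ATF3 (1.49, edgeR adjusted p = 0.00032) and 12.1 kb upstream of FOSB (0.96, edgeR adjusted p = 2.1e-05), and the promoters of FOSL2 (0.35, edgeR adjusted p = 0.02) and JUN (0.30, edgeR adjusted p = 0.016). Without either WT replicate fewer members were called, from fits with a single WT sample per group. The share of all REs called in those fits is not given, so the fall cannot be set against a background. Between tagged and WT cells without dTAGV-1, compared in batches R4, R5 and R8, no difference was detectable at these loci, with 0 members called where 0.95% of all REs were, 0 by DESeq2, and 14 at an unadjusted edgeR p under 0.05.

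Intermediate concentrations showed how the changes followed SOX9 dosage. At 16 nM 28 members were called (background 16.2%), 11 lower and 17 higher. With the replicate as block 59 were (26.1% of all REs). At 5 nM 9 members were called (background 5.32%), 6 lower and 3 higher. Without S9CC47_R6, whose 5 nM library stood apart, 22 were called (11.4% of all REs), 8 lower and 14 higher, and with the replicate as block 14 were (8.53% of all REs). At 1.6 nM (background 0.0383%) and 0.5 nM (background 0%) 0 members were called by edgeR and 0 by DESeq2, with 5 and 13 at an unadjusted edgeR p under 0.05. The 9 members called at 5 nM lay at CCN1 (3), FOSL2 (2), CCN2, FOSL1, JUN and JUND, and included the RE 70.9 kb upstream of CCN2 (-1.18, edgeR adjusted p = 0.00025).

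The 47 called members had moved by 6.16% ± 10.5 (SD, n = 7) of their 500 nM change at 0.5 nM and by 15.1% ± 3.89 at 1.6 nM, taking the median over REs in each replicate. The share was 38.1% ± 13.4 at 5 nM and 60.8% ± 14.9 at 16 nM. A change in proportion to the SOX9 lost would be 22.3, 48.8, 74.9 and 92.7%. At 5 nM the lower members had reached 50.6% ± 17.6 and the higher members 30.8% ± 20.3, where all lower REs had reached 50.1% ± 10.2 and all higher REs 37.8% ± 9.17. Hill curves with ends fixed at the 0 and 500 nM means gave the SOX9 level at which each RE was midway (ED50). It was 40.4% for the RE 70.9 kb upstream of CCN2 (38.6 to 42.7 when each replicate was left out), 41.5% for that 2.7 kb upstream of FOSL1 (37.9 to 45.6) and 33.8% for that 21.2 kb downstream of CCN1 (28.4 to 38.1). For the RE 90.9 kb upstream of JUN, the remaining one lower at both 3 h and 48 h, it was 25.1% (22.1 to 30.7). It was 8.64% for the RE 54.9 kb upstream of FOS (7.65 to 10.3), 13.6% for that 49.8 kb upstream of ATF3 (11.5 to 15.9) and 8.46% for that 12.1 kb upstream of FOSB (7.22 to 10.6). The median ED50 was 20.3% over the 16 lower members and 9.01% over the 31 higher members, as a description without a test.

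**Figure D4:**
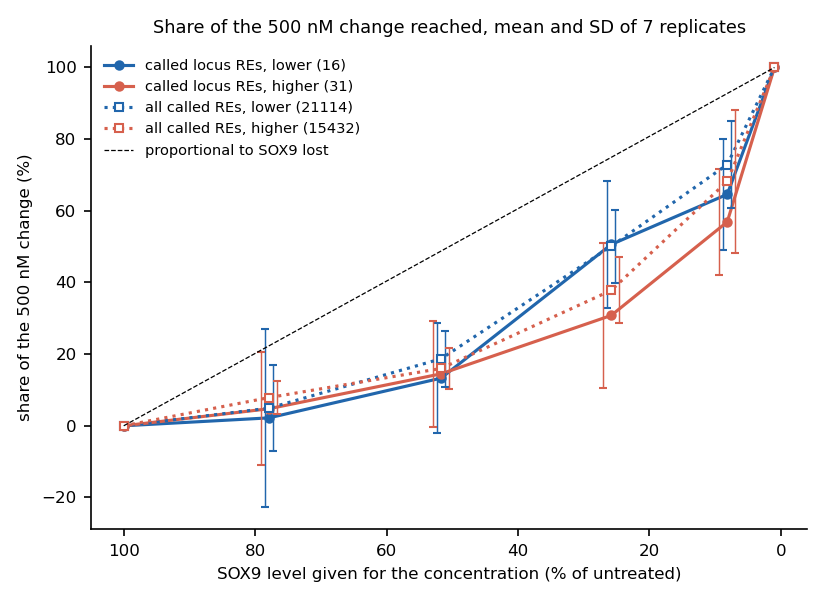
Share of the 500 nM change reached (percent, vertical axis) against the SOX9 level assigned to each concentration (percent of untreated, falling to the right), as mean and SD of 7 replicates, for called locus REs (filled) and all called REs (open), lower in blue and higher in red. All curves lie below the dashed line of proportional change. At 25.8% SOX9, for example, the lower locus REs are at 50.6% and the higher ones at 30.8%, where the line gives 74.9%.

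As these genes encode factors that bind REs elsewhere, the motif content of the members and of all other REs was described. Motifs were counted in REs of the most common length, to which 194 members belong. The AP-1 motif was in 22 (11.3%) and the TEAD motif in 62 (32%), where 9.41% and 30.9% of all 123768 REs of this length held them. The SOX core was in 66 members (34.0%, against 52.4%), and the CRE motif TGACGTCA in 1 (0.515%, against 0.523%). Of the called members of this length, the AP-1 motif was in 6 of 21 that were higher (28.6%) and 0 of 13 that were lower, and over all called REs of this length in 19.1% of the higher and 7.3% of the lower. The TEAD motif was in 6 of the 21 (28.6%) and 6 of the 13 (46.2%), and over all called REs in 31.4% and 34.8%. The SOX core was in 11 (52.4%) and 5 (38.5%), and over all called REs in 56.7% and 58.6%. The CRE motif was in 0 of either group of members. A match is a description and not a bound site. The members are a promoter-rich set, as given above, and the part of this in their motif shares was not tested.

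Beyond the 10 loci, 11625 REs of this length with an AP-1 motif were compared with 111949 without one. Their median log2 ratio of 500 to 0 nM was 0.0929 ± 0.0545 (SD, n = 7) against 0.000668 ± 0.0176. The difference was 0.0922 ± 0.0602 and above 0 in 7 of 7 replicates, from 0.0229 to 0.185. An exact two-sided sign-flip permutation test over the 7 replicates gave p = 0.0156, the smallest this design allows, and 0.0625 after adjustment over the 4 motifs. A lone motif at this smallest p cannot pass the threshold after the adjustment, so the adjusted value does not decide the question. The difference averaged 0.128 in the 4 replicates of S9CC13 and 0.0445 in the 3 of S9CC47. For the CRE motif it was 0.0451 ± 0.0551 (exact permutation p = 0.109, adjusted 0.146), for the TEAD motif -0.0175 ± 0.0156 (exact permutation p = 0.0625, adjusted 0.125) and for the SOX core 0.00452 ± 0.0355 (exact permutation p = 0.766, adjusted 0.766). By edgeR, 20.3% of REs with the AP-1 motif were higher at 500 nM and 10.4% lower, where 8.93% of those without it were higher and 13.7% lower.

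With time, the AP-1 difference was -0.00786 ± 0.00661 (SD, n = 2) at 3 h and 0.0519 ± 0.00929 at 24 h in tagged cells, and 0.0303 ± 0.0401 (n = 7) at 16 nM. In WT cells it was -0.00242 ± 0.00951 (n = 2) at 48 h and 0.0207 ± 0.0113 at 24 h. For the SOX core it was -0.0878 ± 0.0181 at 3 h in tagged cells and 0.0201 ± 0.0415 in WT cells. These time course and WT values are descriptions from 2 replicates each, and the part of the unlike promoter shares in them was not tested.

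**Figure D5:**
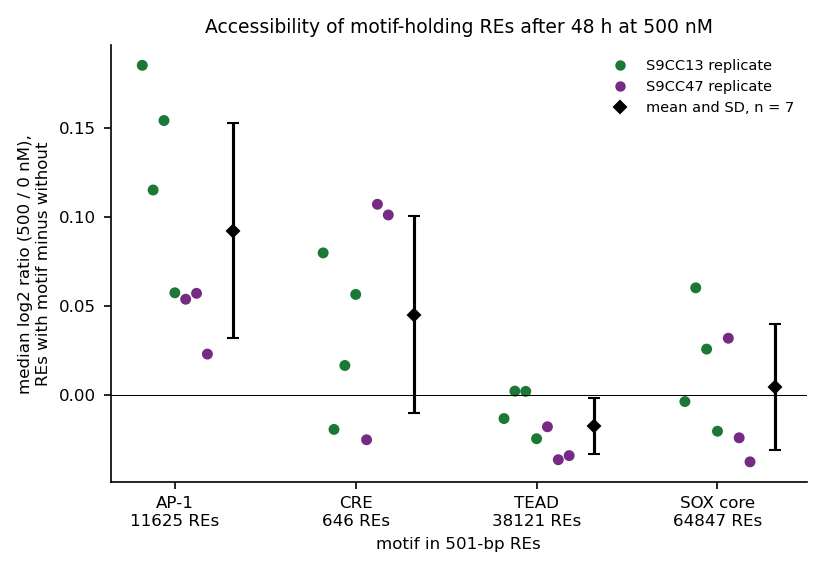
Median log2 ratio (500 over 0 nM, 48 h) of REs with a motif minus that of REs without it, a point per replicate (green S9CC13, purple S9CC47), with diamonds and bars for the mean and SD (n = 7). The AP-1 points are all above 0, from 0.0229 to 0.185, and those of the other motifs fall on both sides of 0.

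Promoters of other genes of the pathways were mostly not called. Of 17 AP-1 partner and immediate-early genes, 16 had a promoter RE, of which 1 was lower and 3 higher at 500 nM, where 8.76% of all promoter REs were lower and 6.42% higher. Higher were EGR1 (0.25 ± 0.05, edgeR adjusted p = 0.00027), EGR2 (0.29 ± 0.07, 0.0048), both zinc finger factors of the immediate-early class, and DUSP1 (0.25 ± 0.08, 0.023), a phosphatase of MAP kinases, and lower was IER3 (-0.21 ± 0.07, 0.027). Of 21 Hippo-YAP genes, 17 had a promoter RE, of which 0 were lower and 1 higher at 500 nM. That was ANKRD1, a YAP target, whose promoter was weak at 0.808 CPM (0.70 ± 0.19, edgeR adjusted p = 0.0082). The log2 fold change was 0.01 ± 0.07 at YAP1 itself (edgeR adjusted p = 0.94) and 0.06 ± 0.09 at TEAD1 (edgeR adjusted p = 0.68). The medians were 0.065 and 0.01 over these lists, and 0.0151 over all promoter REs. At 24 h 1 was lower and 2 higher of the first list and 0 lower and 4 higher of the second, where 5.07% of all promoter REs were lower and 7.36% higher. In WT cells at 48 h 0 of either list were called.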

How the data were processed

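Accessibility was measured by ATAC-seq. The authors trimmed reads, aligned them to hg38 (Bowtie2 2.4.1, per the labels), removed duplicates and reads of low mapping quality (SAMtools 1.10), called summits per sample (MACS2 2.2.7.1), merged reproducible ones into 1 set of REs and deposited whole-number counts per RE and sample, with no normalization and no pooling. REs open in few samples may thus be missing. All 58 columns were used, and 0 were left unused. Columns of the tagged time course batch R5 name S9CC47 where the titles name S9CC13, and were matched by batch, treatment and time. The titles gave the doses of S9CC13_R14, whose 0 and 0.5 nM concentration labels are exchanged. Nothing states separate cultures beyond clone and batch, so p-values measure the spread between these replicates.

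The members and lists were chosen with earlier results of these data known. Counts of all 151457 REs were fitted without a filter with edgeR 4.0.16 (R 4.3.3; TMM, quasi-likelihood F test, Benjamini-Hochberg over all REs, threshold 0.05), with the batch of differentiation as a covariate, which the study also used, with DESeq2. The 2 samples of a replicate at 0 and 500 nM deviated together, so replicates pair the samples. Their mean correlation was 0.773 (lowest 0.615) over 46129 REs of at least 5 CPM, against -0.126 for other pairs. Batch as a covariate keeps this pairing except in batch R6, which holds a replicate of each clone. Fits with the replicate as block called more members at 500, 16 and 5 nM, as given above. In the dose series, values of named REs are from the fit with batch. Interactions of genotype and treatment had line and batch as blocks. The edgeR fit of 500 against 0 nM was tried on simulated counts with known changes. The other fits were not tried in this way. Named REs were, per gene, that at the gene start and the called RE with the lowest p in each direction at 500 nM, then the 10 largest changes, up to 5 called at 3 h, and the AP-1 motif member with the highest CPM. Motifs were counted in hg38 sequence, with a pseudocount of 0.5 CPM in log ratios. Alternatives were DESeq2 1.42.0, its size factors, a filter at 1 CPM, other blocks, a 50 kb window, single clones and left-out replicates.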

Additional observations from a re-analysis of the deposited data

Results flagged for a closer look

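Among the 31 named REs, the 7 samples at 0 nM and the 7 at 500 nM were each checked for a sample far from the others (62 groups, of which chance alone would set apart about 1 in 20). In 8 of them the highest sample stood apart. S9CC47_R8 did so at the RE 87.1 kb upstream of JUND, with 12.9 CPM at 0 nM (next 6.21) and 7.13 CPM at 500 nM (next 3.78), and at 500 nM at the CCN2 promoter (25.7 CPM, next 21.7) and 91.5 kb upstream of FOSB (4.56 CPM, next 3.26). S9CC13_R10 did so at 500 nM at the FOSB promoter (39.9 CPM, next 26.3) and 2.7 kb upstream of FOSL1 (4.44 CPM, next 2.64), and at 0 nM at the FOSL1 promoter (8.0 CPM, next 4.2). S9CC47_R5 did so at 0 nM 56.5 kb downstream of JUN (2.83 CPM, next 1.74).

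The change at 500 nM differed between tagged and WT cells (edgeR interaction, adjusted p under 0.05, tagged minus WT on the log2 scale) at the following named REs. At 48 h it was lower in tagged cells by -2.03 at CCN2 70.9 kb upstream, -1.29 and -1.15 at CCN1 100.5 and 21.2 kb downstream, -1.27 at JUN 90.9 kb upstream, -0.97 at ATF3 58 kb upstream, -0.88 and -0.64 at FOS 43.0 kb downstream and 54.9 kb upstream, -0.85 at JUND 87.1 kb upstream and -0.75 at FOSL1 2.7 kb upstream. It was higher by 1.49 at ATF3 49.8 kb upstream, 1.44 at FOSL2 44.9 kb downstream, 0.96 at FOSB 12.1 kb upstream, 0.95 at JUN 42.2 kb downstream and at CCN2 87.2 kb downstream, 0.83 at CCN1 32.6 kb downstream, 0.35 at the FOSL2 promoter and 0.30 at the JUN promoter. At 3 h it was lower by -1.87 at JUN 56.5 kb downstream, -1.70 at CCN2 70.9 kb upstream and -1.59 at CCN1 21.2 kb downstream. At 24 h it was lower by -2.25 at CCN2 70.9 kb upstream, -1.78 at CCN1 21.2 kb downstream, -1.23 and -1.22 at JUN 90.9 kb upstream and 56.5 kb downstream, -0.99 at FOSL1 2.7 kb upstream and -0.97 at FOSB 91.5 kb upstream, and higher by 1.18 at JUN 42.2 kb downstream. With 2 WT replicates, these differences rest on few samples.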

How the results depend on the processing

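Of the 45 calls at named REs at 500 nM, 3 h and 24 h, recomputed under 17 settings (484 values), 409 stayed past the threshold, 75 did not and 0 changed direction. With no block for batch or replicate the members called fell to 17 (500 nM), 5 (16 nM), 1 (5 nM) and 0 at 3 h, at 24 h and in the 3 genotype differences. With the replicate block in place of batch they were 66 (500 nM, 30.6% of all REs), 59 (16 nM, 26.1%) and 14 (5 nM, 8.53%). The block changed no other count of the dose series by over 1.5 times. DESeq2 gave 4 at 3 h, 20 at 24 h and 13 for the genotype difference at 48 h. Of all 151457 REs it called 8523, 13283 and 13085 in these comparisons. Within 50 kb, 3 members were called at 3 h and 1 for the genotype difference at 3 h. Leaving out each replicate gave 40 to 56 at 500 nM, 3 to 4 at 3 h, 5 to 13 at 24 h, 3 to 10 for the genotype difference at 3 h (10 without WT_R4), 3 to 8 at 24 h (3 without S9CC13_R4), 6 to 9 at 48 h, and 0 to 1 for tagged against WT cells (1 without R4); such fits of the time course pool the spread of both genotypes, so a lone sample is assumed to vary like the others. The 5 nM count without S9CC47_R6 was 22 (11.4% of all REs), a setting chosen after seeing the data. So were the left-out replicates of the genotype differences and the members over 1 kb from a start site. The latter gave 36 at 500 nM and 19 at 24 h, where 27.1% and 15.4% of all distal REs were called. For the fits without a block and the other left-out replicates, no share of all REs is given. Those counts cannot be set against a background. The causes were not tested. Depth limits the weak REs, with 4 to 248 counts per library at CCN2 70.9 kb upstream, 5 to 111 at CCN1 100.5 kb downstream and 5 to 69 at FOSL2 44.9 kb downstream.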
